A study of Mus musculus with 2 samples.

Results

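Unannotated genes antisense to coding genes are stretches of the mouse genome that the authors' assembly listed as new genes and that lie over a protein-coding gene on the other strand. They were taken from 7379 unannotated genes by position and strand alone. An entry was kept where its locus overlapped at least 1 listed protein-coding locus on the opposite strand and none on its own strand, which gave 884 entries. Another 4996 unannotated genes overlapped a coding gene on the same strand and 1499 overlapped none. The entries had spans of 200 to 948871 bases (median 2584), and the shortest overlap with a coding gene was 12 bases. Of the 884, 864 overlapped exactly 1 coding locus, and 854 of the 13381 listed coding genes (6.38%) lay opposite an entry.

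RNA came from brain tissue of C57BL/6J mice aged 6 to 8 weeks, in the study of brain inflammation after lipopolysaccharide (LPS, a component of bacterial outer membranes), with 1 library titled miR-7KD and 1 library titled WT. The fields of the sample records contradict these titles, because the record titled miR-7KD gives a wild type genotype and the record titled WT gives miR-7 KD, so each library is called by its title (KD-titled and WT-titled beside values). With 1 library per title there was no replicate check and no test, and a ratio of at least 2-fold compares these libraries and not the genotypes. Fewer cells of a type and less RNA per cell cannot be told apart in such bulk tissue. Each record calls its sample representative of several biological replicates, and pooling of RNA is not mentioned. For its gene expression profiling the paper describes LPS injection of mice of both genotypes. It calls that profiling a chip array, whereas the values here are FPKM, and it gives its mice an older age range. The extraction protocol names retina, but none of 8 photoreceptor markers was listed in the gene table, whereas all 8 neuronal, 6 astrocyte, 6 microglial, 6 oligodendrocyte, 4 endothelial and 3 erythroid markers were. The summed FPKM of the coding genes was 164811 in the miR-7KD-titled library and 162981 in the WT-titled library, of the unannotated genes 62178 (KD-titled) and 60857 (WT-titled), and of the 884 antisense entries 2134.5 (KD-titled) and 1959.6 (WT-titled).

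Natural antisense transcripts are RNAs made from the strand opposite to a gene. They can start at the shared promoter region of a divergent gene pair, run into the end of a neighbouring gene or lie inside a gene, and some silence or stabilise the RNA they face. In brain the best known is the long antisense transcript of the imprinted ubiquitin ligase gene Ube3a, which silences the paternal Ube3a copy in neurons. Antisense entries in a table can hold such RNAs, and whether a library kept the strand of each RNA decides how far they can be read. No source used here names the strand protocol of these libraries.

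Sequences of 3 sets of entries show what lies at these positions. The first set holds the mature miRNAs that RefSeq places inside an entry on the entry's own strand. The entry MSTRG.1636 (chr1:194976375-195037998, plus strand, 9 exons) ran into the end of the complement regulator gene Cd46 and had a reciprocal overlap of 99.8% with the annotated long noncoding gene A330023F24Rik. It holds miR-29b-2 and miR-29c. MSTRG.10900, opposite the dynamin gene Dnm1 on chromosome 2, holds miR-199b and miR-3154. Bases 2 to 8, the seed with which a miRNA pairs to its targets, are in capitals.
mmu-miR-29b-2-5p: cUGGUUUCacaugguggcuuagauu
mmu-miR-29b-3p: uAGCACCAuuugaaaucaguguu
mmu-miR-29c-5p: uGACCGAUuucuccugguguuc
mmu-miR-29c-3p: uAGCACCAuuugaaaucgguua
mmu-miR-3154: cAGAAGGGgagucgggagcgga
mmu-miR-199b-3p: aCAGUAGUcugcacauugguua
The 3p arms of miR-29b and miR-29c share the seed, while miR-199b-3p and miR-3154 each have a different one. Members of the miR-29 family are known to repress extracellular matrix genes.

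The second set are promoters of coding genes in which an antisense entry starts. RefSeq promoters (GRCm38.p6, 250 bases before to 50 after the gene's start) were found for the coding genes of 672 entries. Not every chromosome was searched for entries that start inside that window, so the counts that follow are not complete. On those searched, 14 entries had their first base inside the window, 3 of them spliced and 11 of 1 exon. The 3 spliced ones are printed on the strand of the coding gene, Il1r2 at chr1:40085843-40086142 (plus), Gabpb1 at chr2:126675543-126675842 (minus) and Lrp8 at chr4:107822911-107823210 (plus). Capitals mark the bases that lie inside the antisense entry's own locus.
Il1r2 promoter: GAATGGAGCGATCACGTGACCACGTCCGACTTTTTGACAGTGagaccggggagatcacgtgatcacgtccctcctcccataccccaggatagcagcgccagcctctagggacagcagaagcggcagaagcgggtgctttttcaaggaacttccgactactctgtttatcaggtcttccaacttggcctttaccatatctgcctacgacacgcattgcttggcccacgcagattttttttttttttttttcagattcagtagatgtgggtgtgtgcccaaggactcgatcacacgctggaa
Gabpb1 promoter: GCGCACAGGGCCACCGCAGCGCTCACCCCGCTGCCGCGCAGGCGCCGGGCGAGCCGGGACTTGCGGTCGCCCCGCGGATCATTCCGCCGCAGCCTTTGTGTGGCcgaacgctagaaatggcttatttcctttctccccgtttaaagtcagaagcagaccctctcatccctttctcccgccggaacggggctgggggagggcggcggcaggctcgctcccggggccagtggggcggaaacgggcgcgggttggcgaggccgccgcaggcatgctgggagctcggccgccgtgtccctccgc
Lrp8 promoter: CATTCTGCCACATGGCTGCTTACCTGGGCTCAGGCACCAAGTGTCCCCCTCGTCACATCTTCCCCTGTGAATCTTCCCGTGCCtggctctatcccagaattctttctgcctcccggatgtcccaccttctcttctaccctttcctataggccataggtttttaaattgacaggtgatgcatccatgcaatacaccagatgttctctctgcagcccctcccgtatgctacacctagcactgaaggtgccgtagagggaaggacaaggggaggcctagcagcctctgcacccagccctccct
The entries started 209, 147 and 168 bases upstream of the RefSeq start of Il1r2, Gabpb1 and Lrp8, in that order, and ran away from it, so that the overlap arose because the deposited loci of these coding genes reach further upstream. The 3 windows held 16, 37 and 5 CG dinucleotides, against a median of 7 over 32851 RefSeq promoters. Il1r2 codes for the decoy receptor of interleukin 1, Lrp8 for a receptor of reelin and apolipoprotein E, and Gabpb1 for a subunit of the transcription factor GABP.

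The third set are exon junctions implied by the finding described next, namely that most spliced entries have the exon structure of the coding mRNA in reverse. The bases are 15 on each side of a junction in the coding part of the annotated transcript (GENCODE M21), read on the entry's strand, with the 2 bases on each side of the junction in capitals. The skipped intron has 2109 bases in Snap25, 504 in Vamp2 and 54598 in Vsnl1.
Snap25 junction: ggtgctttccaggGACTcatcagccagctg
Vamp2 junction: catgatgtccaccACCTcatccacctgggc
Vsnl1 junction: tccataggggaagAACTtcacatagagctg

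The exon numbers and lengths of the entries were compared with the annotated transcripts of the coding genes they overlap. Of the 884 entries, 511 had at least 1 transcript of 2 or more exons, 372 had 1 exon and 1 (MSTRG.1314, antisense to Fam78b) was not in the transcript table. For each spliced entry, each annotated transcript of its coding gene was cut to the ends of the entry. Where the entry ran past the transcript, the end exon of the transcript was stretched to the end of the entry. Exon number and summed exon length were then set against those listed. In 391 of 511 spliced entries (76.5%) both were equal to the base, and these are called entries with matched exons. The other spliced entries number 120, of which 3 had the same exon number with a length that differed by 1 to 50 bases and 17 with a length that differed by more. The same comparison with annotated transcripts on the entry's own strand gave equality in 5 entries. Only 41 of the 391 matched and 64 of the 120 other spliced entries overlapped an annotated gene there. The others had nothing to equal, so this number is no control for the 391. The tables list exon numbers and lengths but no exon borders, so equality of both stands in for equal introns. It held for up to 23 exons, with 311 matched entries of 3 or more exons and 30 of 10 or more.

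The level listed for entries with matched exons was a low fraction of their coding gene. With no strand protocol stated, RNA made from the other strand and reads of the coding mRNA placed on the wrong strand cannot be told apart in these 391 entries, and each of their values below is the level listed for the entry. Their median was 1.62 FPKM (fragments counted relative to transcript length and sequencing depth) in the miR-7KD-titled library and 1.53 in the WT-titled library, beside coding gene medians of 64.6 (KD-titled) and 64.7 (WT-titled) FPKM. The entry reached a median of 2.43% of the coding level (quartiles 1.31% and 4.51%) in the miR-7KD-titled library and 1.95% (quartiles 1.04% and 3.76%) in the WT-titled library. In the 188 of them that covered at least 80% of the coding locus, the medians were 1.66% (KD-titled) and 1.60% (WT-titled). The entry was above the coding gene in 7 of 391 pairs in the miR-7KD-titled library and in 4 in the WT-titled library. Every entry reached at least 1.04 FPKM in a library, so a coding gene of low level can appear in such a pair only where the fraction is high.

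**Figure D1:**
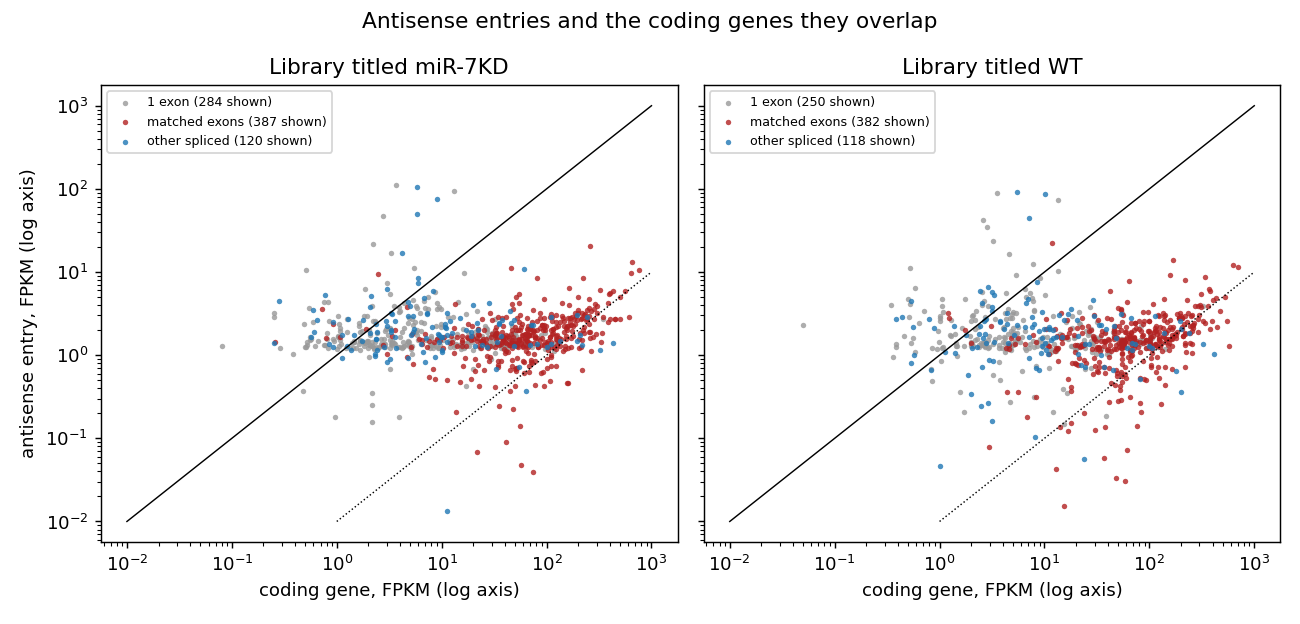
FPKM of each antisense entry (vertical, log axis) against FPKM of the coding gene with the longest overlap (horizontal, log axis), with the library titled miR-7KD on the left and the library titled WT on the right. Points are entries coloured by kind, the solid line is equality and the dotted line 1% of the coding level. Values listed at 0 or under 0.01 FPKM, 92 entries on the left and 133 on the right, are not drawn, and entries with matched exons lie near the dotted line at the right end of each panel.

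The share of coding genes with such an entry went with the level of the coding gene. Of 70 coding genes with a mean of 200 FPKM or more over both libraries, 53 (75.7%) had one. The share was 57.8% of 135 genes at 100 to 200 FPKM, 31.2% of 368 genes at 50 to 100 FPKM and 7.11% of 1224 genes at 20 to 50 FPKM. It was 0.879% of 4663 genes at 5 to 20 FPKM and 0.159% of 6921 genes below. Other spliced entries were found at 7.14% of the genes at 200 FPKM or more and at 0.621% of those below 5 FPKM. Entries of 1 exon were found at 2.37% of the genes below 5 FPKM, 1.97% at 5 to 20, 5.15% at 20 to 50, 6.25% at 50 to 100, 2.96% at 100 to 200 and 1.43% at 200 FPKM or more, so that their share was highest at 50 to 100 FPKM. The part that the lowest listed level has in this pattern was not tested.

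**Figure D2:**
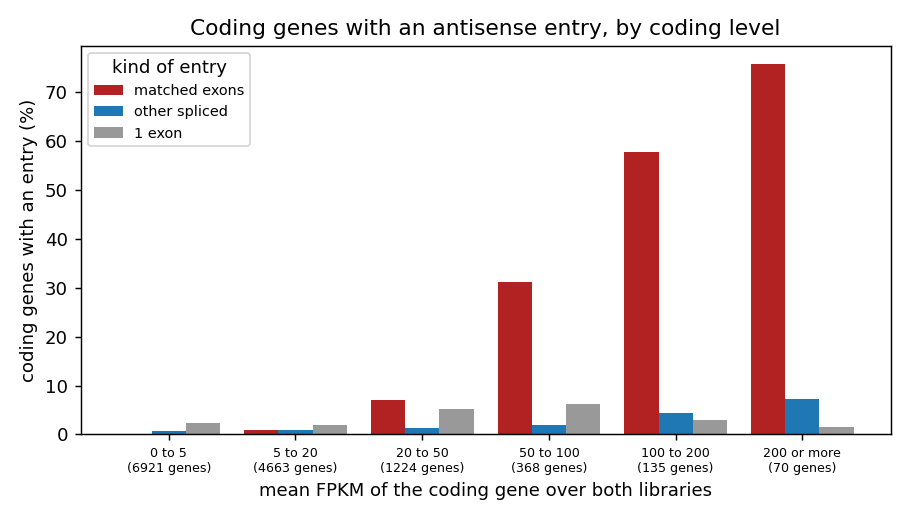
Share of coding genes (percent, vertical) that have an antisense entry, by the mean FPKM of the coding gene over both libraries (horizontal, number of genes in brackets), with 1 bar for each kind of entry. The bar of entries with matched exons goes up to 75.7% at the highest levels.

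Abundant mRNAs supplied the leading pairs. MSTRG.11835, with 8 exons opposite the synaptic vesicle fusion gene Snap25, was at 8.38 FPKM in the miR-7KD-titled library and 8.08 in the WT-titled library, where Snap25 was at 221.0 (KD-titled) and 220.9 (WT-titled). MSTRG.10032, opposite the ferritin heavy chain gene Fth1, was at 13.1 (KD-titled) and 12.3 (WT-titled) FPKM beside 656 (KD-titled) and 625 (WT-titled) for Fth1. MSTRG.22061, opposite the postsynaptic calmodulin-binding gene Nrgn, was at 5.97 (KD-titled) and 5.03 (WT-titled) FPKM beside 555 (KD-titled) and 522 (WT-titled). In these 3 pairs neither strand differed by 1.5-fold between the libraries.

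Long entries of many exons had this structure too. MSTRG.10900, the entry with miR-199b, had 21 exons of Dnm1 and 1.61 (KD-titled) and 1.81 (WT-titled) FPKM beside 170.0 (KD-titled) and 174 (WT-titled). MSTRG.8103 ran for 219401 bases along the amyloid precursor gene App with 16 exons, at 3.48 (KD-titled) and 3.02 (WT-titled) FPKM beside 244 (KD-titled) and 253 (WT-titled). For both, the exon number and the summed length were those of a coding transcript fitted to the ends of the entry. Both entries also ran past an end of their coding gene. The entry stood between 0.944% and 1.43% of the coding level. The longest overlap was MSTRG.21998, 948871 bases and 5 exons opposite the cell adhesion gene Ntm, with 1.45 FPKM in the miR-7KD-titled library and 0.201 in the WT-titled library, beside 24.8 (KD-titled) and 23.8 (WT-titled) for Ntm.

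Acute-phase and stress response genes were among the coding partners. MSTRG.10907 matched 6 exons of Lcn2, the acute-phase gene of lipocalin 2, at 2.13 FPKM in the miR-7KD-titled library and 2.57 in the WT-titled library beside 86.5 (KD-titled) and 89.1 (WT-titled). The metallothionein genes Mt1 and Mt2, which bind zinc and respond to stress, lie side by side and each had an entry of 3 exons. MSTRG.21293, opposite Mt2, was at 9.68 (KD-titled) and 11.6 (WT-titled) FPKM beside 642 (KD-titled) and 700 (WT-titled) for Mt2. MSTRG.21295, opposite Mt1, was at 10.5 (KD-titled) and 13.8 (WT-titled) FPKM beside 763 (KD-titled) and 168 (WT-titled) for Mt1, so that the entry did not follow the 4.54-fold higher listed level of Mt1 in the miR-7KD-titled library.

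That pair was one of 43 entries with matched exons, over 42 coding genes, in which the coding gene differed at least 2-fold between the libraries. The coding gene was higher in the miR-7KD-titled library in 21 and lower in 22, beside 6.01% higher and 5.58% lower among all coding genes at 1 FPKM or more. The median log2 ratios were 1.38 for the higher and -2.36 for the lower coding genes, and 0.07 and 0.19 for the entries facing them. Of the 43 entries, 28 were under 2-fold, 4 were higher with their coding gene, 2 were lower with it and 9 went the other way. Among the 348 pairs whose coding gene was under 2-fold, 85 entries were at least 2-fold different, and among other unannotated genes of 2 or more exons 4.4% were higher and 3.97% lower. Over all 391 pairs, Spearman's rho between the log2 ratios of entry and coding gene was 0.06, a description of pairs that share both libraries.

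The listed coding level differed by over 16-fold in 4 of the 43 pairs. Basp1, a growth cone protein gene, was listed at 259 FPKM in the miR-7KD-titled library and 11.7 in the WT-titled library, while its entry MSTRG.6774 was at 20.4 (KD-titled) and 22.3 (WT-titled). The neuropeptide gene Sst was at 169 (KD-titled) and 10.3 (WT-titled) FPKM, and its entry MSTRG.7780 at 1.27 (KD-titled) and 2.09 (WT-titled). Camk2n1, an inhibitor of the kinase CaMKII, was at 2.47 (KD-titled) and 339 (WT-titled) FPKM, and MSTRG.14974 at 9.36 (KD-titled) and 8.72 (WT-titled). In these 3 pairs the antisense entry was under 2-fold different. The same held for Vgf, a gene of secreted neuropeptides, at 0.798 (KD-titled) and 48.4 (WT-titled) FPKM with its entry MSTRG.16880 at 1.59 (KD-titled) and 1.64 (WT-titled).

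Similar pairs were seen at lower contrast. The vesicle fusion gene Vamp2 was at 173 FPKM in the miR-7KD-titled library and 32.1 in the WT-titled library beside 2.85 (KD-titled) and 2.68 (WT-titled) for MSTRG.3341, and the calcium sensor gene Vsnl1 at 278 (KD-titled) and 66.7 (WT-titled) beside 1.68 (KD-titled) and 1.92 (WT-titled) for MSTRG.4447. The tubulin gene Tubb4a was lower in the miR-7KD-titled library, at 58.0 (KD-titled) and 338 (WT-titled) FPKM, with its entry MSTRG.8973 at 2.39 (KD-titled) and 2.41 (WT-titled). The calmodulin-binding peptide gene Pcp4 was also lower there, at 80.6 (KD-titled) and 366 (WT-titled) FPKM, with its entry MSTRG.8194 at 8.37 (KD-titled) and 6.32 (WT-titled). In all 4 pairs the entry stayed under 1.5-fold. The entries that moved with their gene were MSTRG.11674 at the MHC class I light chain gene B2m, at 0.603 (KD-titled) and 1.58 (WT-titled) FPKM beside 60.7 (KD-titled) and 158 (WT-titled), and MSTRG.23233 at the membrane progesterone-binding gene Pgrmc1, at 1.54 (KD-titled) and 0.151 (WT-titled) beside 125 (KD-titled) and 17.9 (WT-titled). Fam107a, Ndufa12, Acot13 and Pfn2 were the other genes with such an entry. More entries went against their gene. At Rab6b, Slc1a2, Pcdhga8, Syt11, Gprasp1 and Marcks the entry was higher in the miR-7KD-titled library and the gene lower. At Zmat2, Ppp1r1b and Spop the entry was lower there and the gene higher.

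Of these 43 pairs, 11 also had an unannotated gene on the coding strand, and that gene was under 2-fold in 6. At Camk2n1 it was MSTRG.14973, at 278 FPKM in the miR-7KD-titled library and 274 in the WT-titled library. At Sst it was MSTRG.7779, at 90.5 (KD-titled) and 103 (WT-titled) FPKM. In 5 of the 11 pairs, at Vgf, Bex2, Syt11, Rpl29 and Pgrmc1, that gene was at least 2-fold different in the direction of the coding gene. At Vgf it was MSTRG.16879, at 2.72 (KD-titled) and 25.5 (WT-titled) FPKM. The share of the coding gene's signal that each entry took was not tested.

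**Figure D3:**
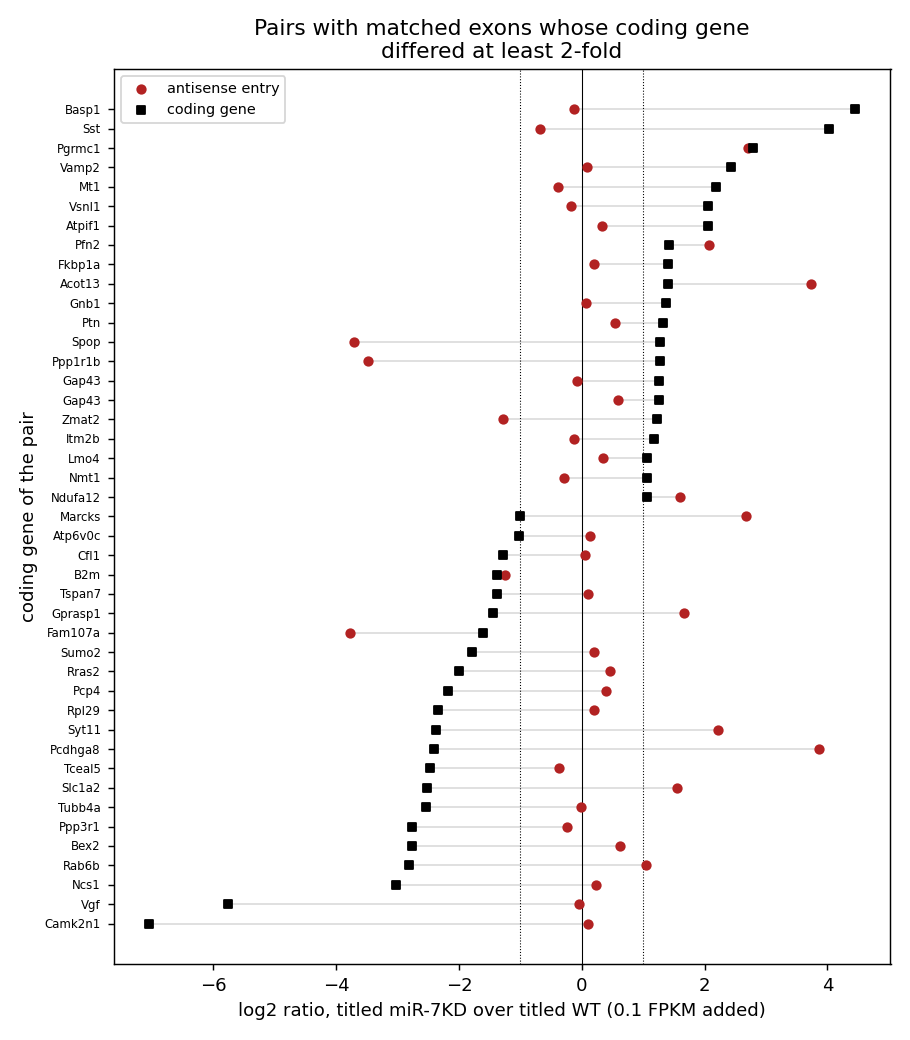
Log2 ratio of the library titled miR-7KD over the library titled WT (horizontal, 0.1 FPKM added to each value) for the 43 antisense entries with matched exons (red circles) and their coding genes (black squares), 1 line for each pair, ordered by the coding gene. Dotted lines mark 2-fold, and 28 of the entries lie between them although every coding gene lies outside.

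The 120 other spliced entries stood closer to their coding genes, which were themselves lower in level. The medians of these entries were 1.89 FPKM in the miR-7KD-titled library and 1.74 in the WT-titled library, with 7.20 (KD-titled) and 8.43 (WT-titled) for the coding genes. Entries with matched exons had similar medians, 1.62 (KD-titled) and 1.53 (WT-titled) FPKM, beside 64.6 (KD-titled) and 64.7 (WT-titled) for their coding genes. The part that the lowest listed level has in this contrast was not tested. The median share of the coding level was 24.9% (KD-titled) and 18.6% (WT-titled). By position, 49 overlapped their gene start to start, 45 lay inside it, 19 met it end to end and 7 spanned it. In GENCODE M21, 33 of the 120 had an annotated gene on their own strand with at least 50% reciprocal overlap, compared with 1 of 391 entries with matched exons and 12 of 372 entries of 1 exon. Of the 47 entries named in this way, 23 were of the annotated type antisense, with 6 lincRNAs, 5 processed transcripts and 4 lncRNAs from bidirectional promoters.

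Entries at the imprinted genes Ube3a and Copg2 stood above their coding gene in both libraries. MSTRG.19260 (chr7:59197790-59347634, minus strand) had 16 exons over 149845 bases and spanned Ube3a, at the place of the known Ube3a antisense transcript. It was at 6.28 FPKM in the miR-7KD-titled library and 5.99 in the WT-titled library, above Ube3a at 2.99 (KD-titled) and 2.41 (WT-titled). MSTRG.17327 (chr6:30802812-30808873, plus strand, 4 exons) lay inside an intron of the imprinted coat protein gene Copg2, at 75.0 (KD-titled) and 87.0 (WT-titled) FPKM beside 9.04 (KD-titled) and 10.1 (WT-titled) for Copg2. Neither entry nor coding gene of these pairs differed by 1.5-fold between the libraries.

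Host genes of small RNAs and other annotated noncoding genes were also seen here. MSTRG.1636, the miR-29 host printed above, was at 4.46 FPKM in the miR-7KD-titled library and 4.47 in the WT-titled library, above Cd46 at 0.283 (KD-titled) and 0.536 (WT-titled). MSTRG.10001 (9 exons, chromosome 19) had a reciprocal overlap of 96.2% with Snhg1, a host of small nucleolar RNAs, and met the amino acid transporter gene Slc3a2 by only 12 bases at their starts. It was at 4.21 (KD-titled) and 4.59 (WT-titled) FPKM beside 28.2 (KD-titled) and 29.2 (WT-titled) for Slc3a2. MSTRG.4979 had a reciprocal overlap of 98.0% with Ndufb1-ps and started against the polyadenylation factor gene Cpsf2, at 49.95 (KD-titled) and 44.9 (WT-titled) FPKM beside 5.81 (KD-titled) and 7.05 (WT-titled). The levels of these 3 entries differed by under 1.5-fold between the libraries, and those of MSTRG.1636 and MSTRG.10001 measure the host transcript and not the small RNA.

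Of the 14 other spliced entries that reached 5 FPKM, 4 were at least 2-fold apart between the libraries, 3 higher and 1 lower in the miR-7KD-titled library, each with its coding gene under 1.5-fold. MSTRG.6316, start to start with the cytokine gene Il17d, was at 16.9 FPKM in the miR-7KD-titled library and 2.37 in the WT-titled library beside 4.22 (KD-titled) and 4.41 (WT-titled) for Il17d. MSTRG.13382, an 8-exon entry over the annotated antisense gene 4933431E20Rik at the glutathione transferase gene Gstm5, was at 11.0 (KD-titled) and 3.16 (WT-titled) FPKM beside 61.0 (KD-titled) and 53.5 (WT-titled). MSTRG.1971, start to start with the histone variant gene H2afy2, was at 8.43 (KD-titled) and 2.16 (WT-titled) FPKM beside 5.89 (KD-titled) and 6.58 (WT-titled). These are log2 ratios of 2.78, 1.77 and 1.91 for the entries, all higher in the miR-7KD-titled library. The lower one was MSTRG.2641, end to end with the centrosome gene Sfi1, at 3.13 (KD-titled) and 6.56 (WT-titled) FPKM beside 3.40 (KD-titled) and 2.90 (WT-titled), a log2 ratio of -1.04. These 4 entries were chosen after their values were seen.

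Entries at a channel gene and an interleukin receptor gene were lower in level. MSTRG.11166, over the annotated antisense gene Gm13629 at the sodium channel gene Scn9a, was at 1.89 (KD-titled) and 0.795 (WT-titled) FPKM beside 0.607 (KD-titled) and 0.529 (WT-titled). MSTRG.301, over Gm16894 at Il1r2, was at 1.92 (KD-titled) and 0.849 (WT-titled) FPKM beside 2.45 (KD-titled) and 3.22 (WT-titled). Both were at least 2-fold higher in the miR-7KD-titled library, and their coding genes were under 2-fold. MSTRG.11709, over Gm27003 at Gabpb1, was lower there, at 0.838 (KD-titled) and 2.55 (WT-titled) FPKM beside 3.03 (KD-titled) and 2.68 (WT-titled). MSTRG.14458, the Lrp8os2 entry at Lrp8, did not reach 2-fold, with 1.17 (KD-titled) and 1.21 (WT-titled) FPKM beside 2.43 (KD-titled) and 2.04 (WT-titled). Il1r2, Gabpb1 and Lrp8 were taken because their promoters are printed above.

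**Figure D4:**
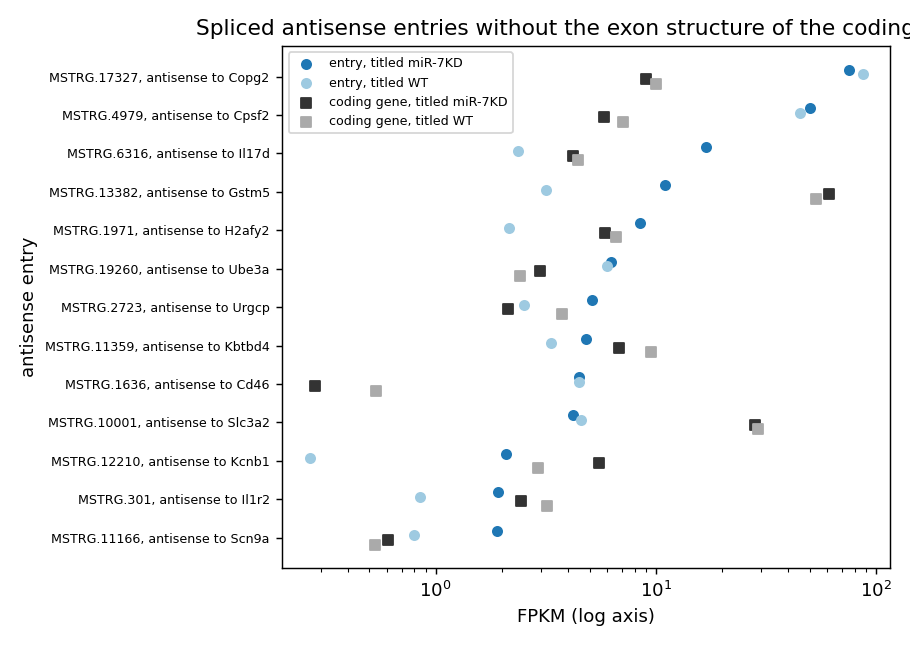
FPKM (horizontal, log axis) of 13 spliced antisense entries without the exon structure of the coding gene, with 1 line for each entry and the library titled miR-7KD above the library titled WT. Circles are the entries and squares their coding genes, and the entry of Copg2 lies at 75.0 (KD-titled) and 87.0 (WT-titled) FPKM, above its gene in both libraries.

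The 372 entries of 1 exon were the lowest and the least even. Their medians were 1.36 FPKM in the miR-7KD-titled library and 1.27 in the WT-titled library, with coding genes at 5.47 (KD-titled) and 5.31 (WT-titled). In the miR-7KD-titled library 87 of them were listed at 0, and in the WT-titled library 122 were, compared with 4 (KD-titled) and 7 (WT-titled) of the 391 entries with matched exons. No exon of the coding gene lay under 96 of them, and in 149 the last exon of the coding gene did. Those 96 had a median share of the coding level of 44.9% (KD-titled) and 30.4% (WT-titled), and the 276 over a coding exon 8.51% (KD-titled) and 5.50% (WT-titled). The levels of the entries were alike, with medians of 1.39 (KD-titled) and 1.31 (WT-titled) FPKM for the 96. For the 276 they were 1.35 (KD-titled) and 1.26 (WT-titled). The coding genes were at 2.93 (KD-titled) and 2.96 (WT-titled) for the 96, and at 8.62 (KD-titled) and 7.85 (WT-titled) for the 276. RNA from the other strand and misplaced reads of the coding gene cannot be told apart in entries of 1 exon either.

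Some short intronic entries were among the highest in level. MSTRG.18415, 277 bases in an intron of the sarcospan gene Sspn, was at 111 FPKM in the miR-7KD-titled library and 90.3 in the WT-titled library beside 3.70 (KD-titled) and 3.52 (WT-titled). MSTRG.10645, 365 bases in the GTPase regulator gene Arhgap21, was at 93.5 (KD-titled) and 72.5 (WT-titled) FPKM beside 13.2 (KD-titled) and 13.6 (WT-titled). MSTRG.12499, 900 bases in the synaptic adhesion gene Nlgn1, was at 46.8 (KD-titled) and 42.4 (WT-titled) FPKM beside 2.75 (KD-titled) and 2.61 (WT-titled). A spliced entry of 412 bases in the zinc finger gene Zc3h7a, MSTRG.7595, was like them, at 105 (KD-titled) and 92.2 (WT-titled) FPKM beside 5.84 (KD-titled) and 5.48 (WT-titled). All 4 were slightly higher in the miR-7KD-titled library, by under 1.5-fold. FPKM divides by length, and the effect of these short lengths on the values was not tested.

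Between the libraries, 220 of the 884 entries were at least 2-fold higher in the miR-7KD-titled library and 138 were at least 2-fold lower, 40.5% in all. Every entry reached at least 1.04 FPKM in a library, so entries low in both are absent from these counts. The shares given above for coding genes and for other spliced unannotated genes were lower, and among other unannotated genes of 1 exon 51.6% were higher and 24.1% lower. By kind, entries of 1 exon were higher in 137 (36.8%) and lower in 96 (25.8%), entries with matched exons higher in 62 (15.9%) and lower in 38 (9.72%), and other spliced entries higher in 21 (17.5%) and lower in 4 (3.33%). Whether these shares differ beyond the spread between libraries of 1 title could not be tested.

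Most of these differences were in entries of low level. Among entries of 1 exon whose larger value was under 2 FPKM, 211 of 275 (76.7%) were at least 2-fold different and 193 were listed at 0 in a library. At 2 to 5 FPKM it was 19 of 79 and at 5 FPKM or more 3 of 18. Of entries with matched exons, 86 of 236 were so under 2 FPKM, 14 of 138 at 2 to 5 FPKM and 0 of 17 above. Among the highest entries that differed was MSTRG.14887, over exons of the centrosome gene Cep85, at 7.32 FPKM in the miR-7KD-titled library and 35.0 in the WT-titled library beside 3.03 (KD-titled) and 2.84 (WT-titled). MSTRG.8572, in the gene Btbd9, was at 0.182 (KD-titled) and 9.12 (WT-titled) FPKM beside 3.91 (KD-titled) and 5.31 (WT-titled).

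**Figure D5:**
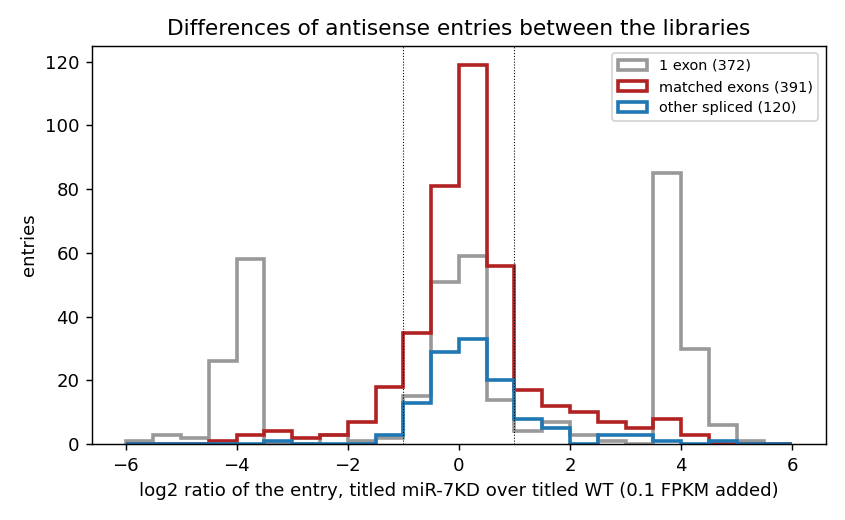
Number of antisense entries (vertical) by log2 ratio of the library titled miR-7KD over the library titled WT (horizontal, 0.1 FPKM added to each value), with 1 line for each kind of entry and dotted lines at 2-fold. The outer peaks of the entries of 1 exon lie where a library listed the entry at 0, with 87 such entries in the miR-7KD-titled and 122 in the WT-titled library.

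Entry and coding gene were both at least 2-fold different in 47 pairs, in the same direction in 27 and in opposite directions in 20. Of 48 pairs with a higher coding gene, the entry was higher in 17 and lower in 10. Of 52 with a lower coding gene, it was higher in 10 and lower in 10. Where the coding gene was under 2-fold, 193 of 784 entries were higher and 118 lower. Some of the 47 pairs held entries of 1 exon that were listed at 0 in a library. MSTRG.10308, opposite the fatty acid desaturase gene Scd1, was at 1.63 FPKM in the miR-7KD-titled library and listed at 0 in the WT-titled library, beside 49.3 (KD-titled) and 5.31 (WT-titled) for Scd1. Both entries at the neuronal transcription factor gene Neurod2, MSTRG.3899 and MSTRG.3900, were at 1.27 and 1.499 FPKM in the miR-7KD-titled library and listed at 0 in the WT-titled library, beside 30.4 (KD-titled) and 6.53 (WT-titled) for Neurod2. MSTRG.20397, opposite Tollip, an inhibitor of Toll-like receptor signalling, went the other way, listed at 0 in the miR-7KD-titled library and at 1.65 FPKM in the WT-titled library, beside 38.5 (KD-titled) and 6.15 (WT-titled). Among all 884 entries, Spearman's rho between the log2 ratios of entry and coding gene was 0.02.

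The gene lists placed the coding partners by role. Of synaptic and channel genes 16 of 80 listed had an entry, of imprinted genes 7 of 41 and of published antisense partners in brain 9 of 43, compared with 6.38% of all coding genes. Of neural transcription factors it was 3 of 66, of LPS and NF-kB response genes 2 of 39 (Lcn2 and the kinase gene Sgk1) and of the miR-7 network 0 of 3. Neuron markers had 5 of 8, oligodendrocyte markers 3 of 6, astrocyte markers 1 of 6, erythroid markers 1 of 3 and microglial and endothelial markers 0 of 6 and 0 of 4. All 10 entries at these marker genes had matched exons, and the markers with an entry included Snap25, Syt1 and Mbp. The lists were not matched for coding level, with which the share of genes with a matched entry went. The 8 neuron markers summed to 725 (KD-titled) and 729 (WT-titled) FPKM, and the 6 microglial markers to 48.5 (KD-titled) and 53.8 (WT-titled). Oligodendrocyte markers summed to 469 (KD-titled) and 441 (WT-titled) FPKM, and erythroid markers to 409 (KD-titled) and 442 (WT-titled). Sums were less alike for astrocyte markers, at 193 (KD-titled) and 411 (WT-titled), and endothelial markers, at 60.9 (KD-titled) and 39.7 (WT-titled). Role and coding level cannot be told apart in these shares.

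Entries at synaptic genes showed each of the 3 kinds. Of 17 entries there, 8 had matched exons, 3 were otherwise spliced and 6 had 1 exon, and in the miR-7KD-titled library 3 were at least 2-fold higher and 4 lower, 7 of 17 beside 40.5% of all 884 entries. MSTRG.9605 matched 18 exons of the kinase gene Camk2a at 2.14 FPKM in both libraries, beside 69.9 in the miR-7KD-titled and 75.1 in the WT-titled library. MSTRG.3404 matched 13 exons of the postsynaptic scaffold gene Dlg4 at 1.14 (KD-titled) and 0.721 (WT-titled) FPKM beside 104 (KD-titled) and 104 (WT-titled). MSTRG.2730 and MSTRG.2731, of 1 exon at the related kinase gene Camk2b, were listed at 0 in the miR-7KD-titled library and at 1.41 and 1.59 FPKM in the WT-titled library. The imprinted splicing gene Snrpn had a matched entry of 10 exons, MSTRG.19365, at 2.92 (KD-titled) and 2.45 (WT-titled) FPKM beside 254 (KD-titled) and 267 (WT-titled).

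Over all 884 entries, 97 were above their coding gene in the miR-7KD-titled library, 77 in the WT-titled library and 53 in both. The median share of the coding level was 4.43% in the miR-7KD-titled library and 2.97% in the WT-titled library, on the log2 scale -4.26 (KD-titled) and -4.63 (WT-titled) with 0.1 FPKM added. By position, 597 entries lay inside the coding locus, 189 overlapped start to start, 77 end to end and 21 spanned it. Start-to-start entries had median shares of 20.1% (KD-titled) and 13.3% (WT-titled), against 3.33% (KD-titled) and 2.53% (WT-titled) for entries inside. Position and kind were not separated in this contrast, in which 43 of the 189 start-to-start entries and 301 of the 597 inside had matched exons. The coding genes also differed in level, with medians of 7.11 (KD-titled) and 8.04 (WT-titled) FPKM for start-to-start entries. For entries inside they were 29.6 (KD-titled) and 29.5 (WT-titled). Without the entries with matched exons, an alternative chosen after seeing the data, the median log2 ratios of entry to coding gene were -2.33 (KD-titled) and -2.92 (WT-titled).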

How the data were processed

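RNA of 2 mouse brain libraries was analysed from tables in which the authors deposited FPKM for protein-coding genes, unannotated genes and unannotated transcripts. Bowtie 0.12.2 and mm8 stand in the submitters' processing notes. No source used here names the assembler, the counting program or the strand protocol. Positions are those of GRCm38, since 13362 of 13364 coding genes found by ID overlapped the GENCODE M21 gene of that ID. Read depth is unknown. Each column was matched to a sample by the number after # in its title. A table of coding transcripts was not used.

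Log2 ratios were computed with 0.1 FPKM added to each value, which understates the differences of low entries, and called at 2-fold with 1 FPKM or more in at least 1 library. The coding gene of an entry was the one with the longest overlap (at least 1 base). Exons of annotated transcripts came from GENCODE M21, and miRNAs and promoters from RefSeq (GRCm38.p6). Splice sites and polyadenylation signals were not examined here. The functions were tested on simulated data in which no entry was low in both libraries, so calls on low entries were not covered. No test between the libraries was made, as each title had 1 library.

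Members, kinds of entry and gene lists were chosen with earlier results of these data known. Named entries were the 10 highest, the 10 largest log2 ratios in each direction, the 5 highest relative to a coding gene at 0.5 FPKM or more, those at listed genes, the 5 with most exons or longest overlap and the 5 strongest pairs in each direction, of which only part is printed. Basp1, Mt1 and other pairs with matched exons outside this rule, and other spliced entries with an annotated name, were chosen after their values were seen. Alternatives were other pseudocounts, minimum levels, thresholds, scalings, overlaps and partner genes. Calculations used Python 3.11.15 with pandas 2.3.3, numpy 2.4.6 and scipy 1.17.1, and plots used matplotlib 3.10.9.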

Additional observations from a re-analysis of the deposited data

How the results depend on the processing

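Of 72 values computed under alternatives, 48 stayed within a set range. The range was 1.5 times a count, a 1.5-fold change of a median ratio on the linear scale, or the exact 95% binomial interval of a share. No median ratio changed sign. Some of the 48 could not move. A pseudocount added to both sides leaves the counts above the coding gene as they are. Dropping the minimum changes nothing, as every entry reached 1 FPKM in a library. With a pseudocount of 1, 30.5% of entries were at least 2-fold different, the median log2 ratios of entry to coding gene were -3.40 in the miR-7KD-titled and -3.53 in the WT-titled library, and 15 pairs differed in the same and 12 in opposite directions. At a minimum of 2 FPKM, 24 entries were higher and 21 lower (14.2% of 316). At 3-fold, 33.9% of entries differed, with 13 pairs in the same and 9 in opposite directions. Without entries listed at 0, 90 were higher and 47 lower (20.7% of 663). With spliced entries only, 83 were higher and 42 lower (24.5% of 511), 32 (KD-titled) and 23 (WT-titled) were above their coding gene, and the median log2 ratio in the miR-7KD-titled library was -4.98. Without entries with matched exons, an alternative chosen after seeing the data, 52.3% of 493 differed, the medians were -2.33 (KD-titled) and -2.92 (WT-titled), and 11 pairs went in opposite directions. Rescaling to the median of coding genes (log2 -0.01) or of unannotated genes (0.03), other overlaps and other partner genes moved no value further. No paired analysis was possible because each title had 1 library. Unknown depth limits every value near 1 FPKM.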
